A study of Mus musculus with 6 samples.

Results

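The 39 genes described here encode the contractile apparatus of skeletal muscle and the calcium and energy systems that serve it, and they were picked by symbol from the 55401 genes counted in whole mouse tibias. The list names genes by their known role, and it was drawn up with earlier results of these data known. Of the 39 genes, 13 belong to fast fibers, 7 to slow fibers and 2 to developing fibers, while 17 are used by fast and slow fibers alike. A tibia is mostly bone and marrow, so these genes belong to a minor tissue of the ground sample.

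Whole tibias were snap-frozen and pulverized from male mice aged 8 weeks, 3 of them Atrx-cKO and 3 controls, and polyadenylated RNA of each gave 1 library of 150-bp paired-end reads. Atrx-cKO mice carried a floxed *Atrx* allele, which encodes a chromatin remodeler, on their single X chromosome together with *Osterix-Cre*, a transgene in which the *Sp7* promoter drives a tetracycline-responsive Cre in osteoblast progenitors. Control mice carried the floxed allele without *Osterix-Cre*, and doxycycline held Cre back from conception until 3 weeks of age. *Atrx* (ENSMUSG00000031229, chromosome X from 105797615 to 105929403 of GRCm38) was at 153, 166 and 171 CPM in Atrx-cKO replicates 1, 2 and 3 and at 174, 166 and 165 CPM in control replicates 1, 2 and 3, where CPM is the count scaled to 1e6 counts of the TMM-adjusted library size. The groups overlapped, and this count over the whole gene in the whole tibia does not isolate the cells in which Cre acts, so it gave no check of the genotype labels. In what follows, values are listed in that library order.

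Skeletal muscle contracts when myosin heavy chains of the thick filament pull on actin of the thin filament, and troponin and tropomyosin on the thin filament switch this on when calcium is released from the sarcoplasmic reticulum. Fiber types differ in which isoform of each protein they make. In the mouse, slow type I fibers use *Myh7*, oxidative fast type IIa fibers use *Myh2*, intermediate type IIx fibers use *Myh1* and glycolytic fast type IIb fibers use *Myh4*, whereas *Myh3* and *Myh8* are the embryonic and perinatal myosins.

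The 5 fast and developmental myosin genes lie side by side on the plus strand of chromosome 11 of GRCm38, in the order *Myh3* (67078300 to 67102291), *Myh2* (67171027 to 67197517), *Myh1* (67200052 to 67224575), *Myh4* (67238029 to 67260446) and *Myh8* (67277124 to 67308634). *Myh7* lies apart on chromosome 14 (54970684 to 54994626, minus strand). Of the neighbors, *Myh4* gave a pattern over the 6 libraries that *Myh1* and *Myh2* did not share, and the promoters of all 3 are printed here together with that of *Acta1*, the skeletal actin gene, whose pattern most of the list shared. Each runs 5′ to 3′ from 250 bases before the RefSeq start through the first 25 bases after it (RefSeq, GRCm38.p6), and capitals mark matches on either strand to an E-box (CANNTG), to TATAAA, to the MEF2 site or to the CArG box. The windows are chr11:67237562-67237836 on the plus strand for *Myh4*, chr11:67199852-67200126 on the plus strand for *Myh1*, chr11:67170777-67171051 on the plus strand for *Myh2* and chr8:123894751-123895025 on the minus strand for *Acta1*.
Myh4: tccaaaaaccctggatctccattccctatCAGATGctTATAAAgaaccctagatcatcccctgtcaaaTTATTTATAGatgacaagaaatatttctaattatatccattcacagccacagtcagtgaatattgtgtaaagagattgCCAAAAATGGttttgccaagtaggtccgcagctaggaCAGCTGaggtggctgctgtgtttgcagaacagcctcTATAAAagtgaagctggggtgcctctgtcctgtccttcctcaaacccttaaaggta
Myh1: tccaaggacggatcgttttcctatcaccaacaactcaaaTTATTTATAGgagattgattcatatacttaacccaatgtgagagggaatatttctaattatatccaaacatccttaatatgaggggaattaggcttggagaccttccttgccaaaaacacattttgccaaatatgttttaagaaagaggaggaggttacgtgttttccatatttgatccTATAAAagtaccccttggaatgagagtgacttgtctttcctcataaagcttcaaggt
Myh2: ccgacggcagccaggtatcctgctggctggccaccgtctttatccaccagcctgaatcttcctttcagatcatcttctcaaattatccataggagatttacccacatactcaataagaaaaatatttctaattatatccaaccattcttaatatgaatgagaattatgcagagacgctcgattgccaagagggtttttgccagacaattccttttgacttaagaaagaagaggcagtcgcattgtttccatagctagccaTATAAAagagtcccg
Acta1: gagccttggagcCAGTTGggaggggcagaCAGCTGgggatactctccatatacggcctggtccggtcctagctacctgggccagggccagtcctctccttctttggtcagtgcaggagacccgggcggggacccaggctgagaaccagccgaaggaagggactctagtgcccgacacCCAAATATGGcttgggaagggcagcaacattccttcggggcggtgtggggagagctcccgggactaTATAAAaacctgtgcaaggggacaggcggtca
The *Myh4* window held 2 E-boxes, at -221 and -67 from the start, 3 TATAAA matches, 1 MEF2 site at -182 and 1 CArG box at -104. One of its TATAAA matches, at -179, lies inside the MEF2 site. The *Myh1* window also held 1 MEF2 site, at -211, which likewise overlaps a TATAAA match, and it held no E-box and no CArG box. In the *Myh2* window the only match was a TATAAA at 11. The TATAAA nearest the start stood at -31 in *Myh4*, -32 in *Myh1* and -7 in *Acta1*, so the windows may not be aligned alike. Positions and matches depend on the RefSeq start used, and the *Myh4* window ends at 67237836, before the gene start of 67238029 given above. The *Acta1* window held 2 E-boxes, 1 TATAAA and 1 CArG box at -73. Windows were on hand for 31 of the 39 genes. An E-box stood in 27 of the 31 genes (87.1%) against 72.4% of all 27025 genes with a window, TATAAA in 9 (29.0%) against 15%, the MEF2 site in 5 (16.1%: *Myh1*, *Myh4*, *Myh8*, *Pvalb* and *Ttn*) against 3.55%, and the CArG box in 4 (12.9%: *Acta1*, *Ldb3*, *Myh4* and *Myl3*) against 1.70%. These are matches of letters, and binding was not measured.

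One library stood apart from the other 5. The 39 genes together took 0.444%, 0.238% and 0.135% of the reads counted on genes in the Atrx-cKO libraries and 0.175%, 0.169% and 1.84% in the controls, so control replicate 3 held 4.14 times the share of the next library and 13.6 times that of the lowest, Atrx-cKO replicate 3. Among the other 5 libraries the shares ran over a 3.28-fold range with Atrx-cKO replicate 1 at the top. The depth behind these shares was 58029939, 55178546 and 56970091 counts on genes in the Atrx-cKO libraries and 54395736, 70571655 and 50977777 in the controls, and the 95% Wilson intervals were narrow (0.135% to 0.136% for the lowest share and 1.83% to 1.84% for the highest). Intervals and detection limits given here cover counting error only. *Myh4* ranked 9th of all genes by count in control replicate 3 and between 101st and 2127th in the other libraries. In bulk tissue, less muscle in a sample and less RNA of these genes per fiber cannot be told apart. The part that dissection played in the differences between libraries was not tested.

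Control replicate 3 was the highest of the 6 libraries for 28 of the 39 genes, against 22.4% of the 20636 genes that passed the filter on low counts, and it exceeded the median of the other 5 by at least 2-fold for 26 of the 39, against 4.37% of those genes. The excess was divided by the fiber type that a gene was listed under. It reached at least 2-fold in 11 of 13 fast genes (median ratio 10.9) and in 14 of 17 genes of both fiber types (median 7.82), in 1 of the 2 developmental genes, and in 0 of 7 slow genes (median 1.05), where the median over all genes that passed was 1.0. The SD of log2 CPM (0.5 CPM added) over the 6 libraries had a median of 0.263 in slow genes and 1.43 in fast genes. How much RNA of the slow genes came from muscle fibers was not tested. Within the other 5 libraries, Atrx-cKO replicate 1 was highest for 37 of the 39 genes, a rank it held for 27% of all genes, and Atrx-cKO replicate 3 was the lowest of all 6 for 28 genes, including all 17 of both fiber types, against 14.6% of all genes.

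**Figure D1:**
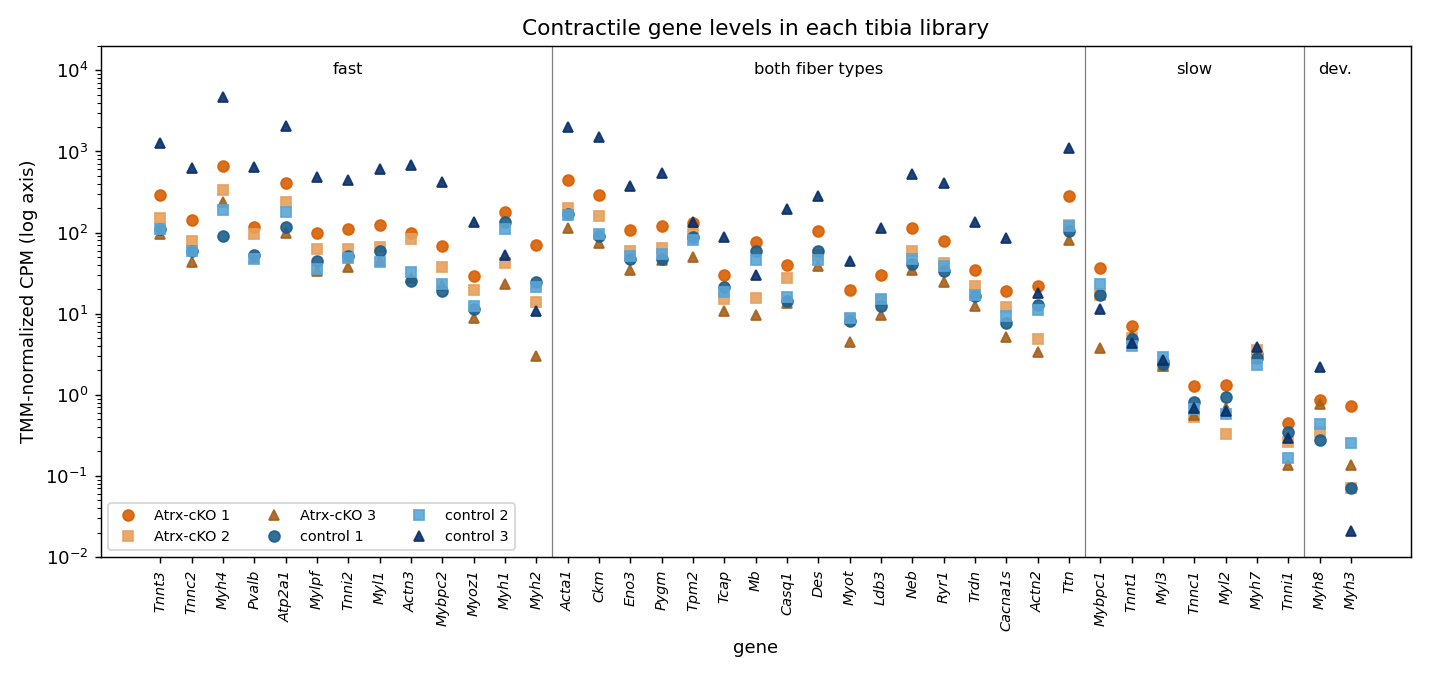
TMM-normalized CPM of each of the 39 genes (log axis) in the 6 libraries, with genes grouped by fiber type and ordered within a group by mean CPM per exon kilobase; each point is 1 library. Control 3 lies above the other libraries for 11 of 13 fast genes and 15 of 17 genes of both fiber types, and within or near their range for the 7 slow genes.

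The fast myosins separated by library. *Myh4*, the type IIb myosin, was at 671, 335 and 240 CPM in the Atrx-cKO libraries and at 91.6, 188 and 4630 CPM in the controls. The lowest and the highest value were thus both controls, and the Atrx-cKO values fell between them. *Myh1*, the type IIx myosin, was at 181, 42.7 and 23.3 CPM in Atrx-cKO and at 134, 109 and 52.4 CPM in control tibias, so that control replicate 3, far above the others for *Myh4*, was below both other controls. *Myh2*, the type IIa myosin, was at 69.5, 14.1 and 3.04 CPM in Atrx-cKO and 24.2, 21.5 and 10.7 CPM in control libraries, with control replicate 3 again the lowest control. For *Myh1* and *Myh2* the groups overlapped and Atrx-cKO replicates 1 and 3 marked the extremes.

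*Myh7*, the slow myosin, was at 3.20, 3.61 and 2.87 CPM in Atrx-cKO and 2.87, 2.34 and 3.89 CPM in control libraries, from 156 to 206 counts each, and was nearly level across libraries whose *Myh4* differed up to 50.6-fold. The developmental myosins had the lowest mean CPM per exon kilobase of the 39 genes over the 6 libraries. The merged exons of *Myh8* hold 11772 bases, and its longest protein-coding transcript has 6149. Without length scaling *Myh8* averaged 0.662 CPM in Atrx-cKO and 0.981 CPM in control libraries, above slow *Tnni1* at 0.281 and 0.270 CPM. The limit that 0 counts allows, 3 counts, is 0.0425 to 0.0588 CPM here, on library sizes without the TMM adjustment. Embryonic *Myh3* had 43, 4 and 8 counts in Atrx-cKO and 4, 17 and 1 in control libraries, too few to pass the filter on low counts. Perinatal *Myh8* had 50, 20 and 46 counts in Atrx-cKO and 16, 29 and 106 in controls, with control replicate 3 highest.

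On the scale of CPM per exon kilobase, which allows genes to be compared, *Myh4* made up 74.2%, 85.9% and 89.8% of the transcripts of the 6 myosins in the Atrx-cKO libraries and 37.9%, 60.3% and 98.7% in the controls. *Myh1* accounted for 19.0%, 10.4% and 8.27% in Atrx-cKO and for 52.7%, 33.2% and 1.06% in control tibias. *Myh1* was therefore the leading myosin in control replicate 1, and *Myh4* led in the other 5 libraries. The share of *Myh2* was 6.48%, 3.04% and 0.960% in Atrx-cKO and 8.47%, 5.80% and 0.192% in control libraries, and *Myh7* held between 0.0578% and 0.832%. Within the 3 controls the makeup ran from mostly *Myh1* to almost wholly *Myh4*, a wider span than that of the 3 Atrx-cKO libraries. The myosin mRNAs are alike in sequence, but of the 150-base windows of each transcript 2.49% (*Myh1*), 2.06% (*Myh2*), 0.511% (*Myh4*), 0.533% (*Myh8*) and none (*Myh3* and *Myh7*) also occurred in another of the 6, so few reads of this length could fit more than 1 of them.

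**Figure D2:**
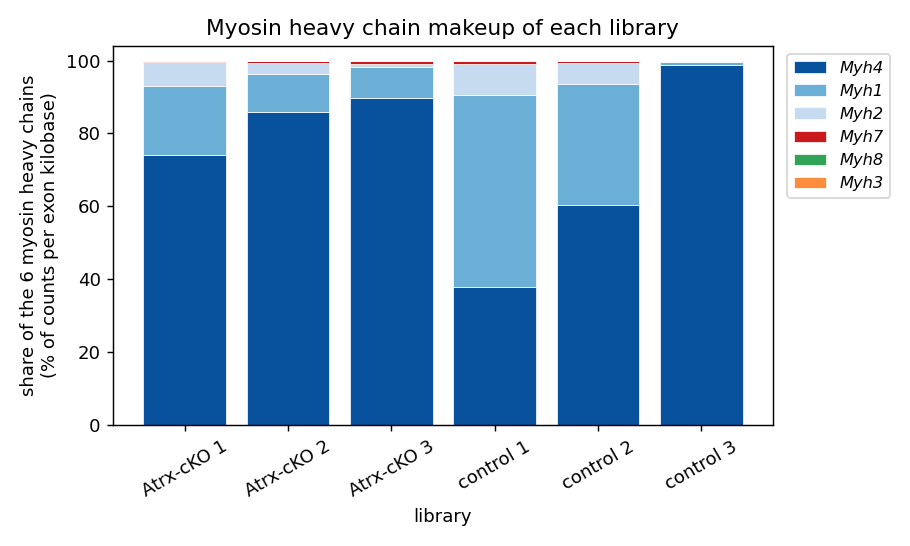
Share of each myosin heavy chain gene among the 6 (percent of counts per exon kilobase, stacked bars) in each library. *Myh4* makes up 37.9% of control 1 and 98.7% of control 3, and the 3 Atrx-cKO libraries lie between 74.2% and 89.8%.

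The troponins of the thin filament split in the same way. *Tnnt3*, fast troponin T, which anchors the complex to tropomyosin, was at 289, 152 and 94.9 CPM in Atrx-cKO and 110, 112 and 1262 CPM in control libraries. Its slow counterpart *Tnnt1* was at 7.10, 5.01 and 5.5 CPM in Atrx-cKO and 4.86, 4.02 and 4.35 CPM in controls. *Tnnt1* was the only one of the 38 tested genes whose groups did not overlap, with all 3 Atrx-cKO values above all 3 controls, where 4.3% of all tested genes had groups apart in that direction, 4.01% in the other and 8.31% in either. Its log2 fold change was 0.41 (standard error 0.18), with an unadjusted p of 0.0536 and an adjusted p of 0.992 (quasi-likelihood F-test of edgeR, Benjamini-Hochberg over all genes). *Tnnc2*, the calcium-binding fast troponin C, and *Tnni2*, the inhibitory fast troponin I, ran from 43.1 to 619 CPM and from 37.2 to 449 CPM, each highest in control replicate 3 and lowest in Atrx-cKO replicate 3. Slow troponin C, *Tnnc1*, had only 30 to 74 counts per library, and slow troponin I, *Tnni1*, 8 to 26 counts, with Atrx-cKO replicate 1 highest for both.

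Myosin light chains and myosin-binding proteins gave the same contrast of fast and slow isoforms in control replicate 3, with 1 slow isoform more variable than the others. *Mylpf*, the fast regulatory light chain, was at 99.1, 62.3 and 33.6 CPM in Atrx-cKO and 44.4, 36.0 and 482 CPM in control libraries, and *Myl1*, the fast essential light chain, ran from 43.2 to 599.5 CPM in the same manner. *Myl2*, the slow regulatory light chain, was at 0.333 to 1.33 CPM (19 to 78 counts), and *Myl3*, the slow essential light chain, stayed between 2.26 and 2.90 CPM. *Mybpc2*, the fast myosin-binding protein C, was at 68.8, 37.9 and 22.6 CPM in Atrx-cKO and at 18.8, 23.0 and 417 CPM in control tibias. The more variable isoform was *Mybpc1*, the slow form, at 36.6, 17.0 and 3.75 CPM in Atrx-cKO and 17.1, 23.3 and 11.3 CPM in controls. *Mybpc1* had a higher mean CPM per exon kilobase than the other slow genes, though not in Atrx-cKO replicate 3, varied 9.75-fold between libraries and did not share the excess of control replicate 3.

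The 7 pairs of slow and fast isoforms were compared as the slow isoform's share. In control replicate 3 the fast isoforms were far above the other libraries and the slow ones were not, so the share was low there. The shares are of RNA in the whole tibia, and the part of slow isoform RNA that muscle fibers gave was not tested. *Mybpc1* made up 29.8%, 26.3% and 11.7% of *Mybpc1* plus *Mybpc2* in Atrx-cKO and 42.1%, 44.7% and 2.12% in control libraries (per exon kilobase). The share of *Tnnt1* in its pair was 1.73%, 2.32% and 4.0% in Atrx-cKO and 3.07%, 2.52% and 0.247% in controls. For *Myl3* it was 2.12%, 3.38% and 4.88% in Atrx-cKO and 3.90%, 6.37% and 0.450% in controls. In all 7 pairs control replicate 3 had the lowest slow share of the 6 libraries. Over 11 ratios (the 7 pairs, the shares of *Myh1*, *Myh2* and *Myh4* among the 3 adult fast myosins, and that of *Myh3* plus *Myh8* among the 6 myosins) no ratio separated the genotypes, with two-sided exact permutation p-values from 0.6 to 1 and a smallest Benjamini-Hochberg adjusted value of 0.99. With 3 libraries against 3 this exact permutation test cannot go below p = 0.1. Without control replicate 3 the difference in log2 odds turned from positive to negative in all 7 slow and fast pairs, for example from 0.22 to -1.49 for *Mybpc1* and *Mybpc2* and from 0.75 to -0.42 for *Myh7*. The difference for *Myh4* among the 3 adult fast myosins then went from 0.42 to 2.53 and that for *Myh1* from -0.43 to -2.48, with the 3 Atrx-cKO libraries apart from the 2 remaining controls in both (exact permutation p = 0.1 before adjustment, the smallest that 3 against 2 allows). The shares of *Myh4* and *Myh1* are parts of the same total, so they do not count as separate results. Over the 11 ratios with each library left out in turn, 1 more value was at p = 0.1 by the exact permutation test, the pair of *Tnni1* and *Tnni2* without control replicate 1, where the slow share was higher in Atrx-cKO by 1.41 in log2 odds.

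**Figure D3:**
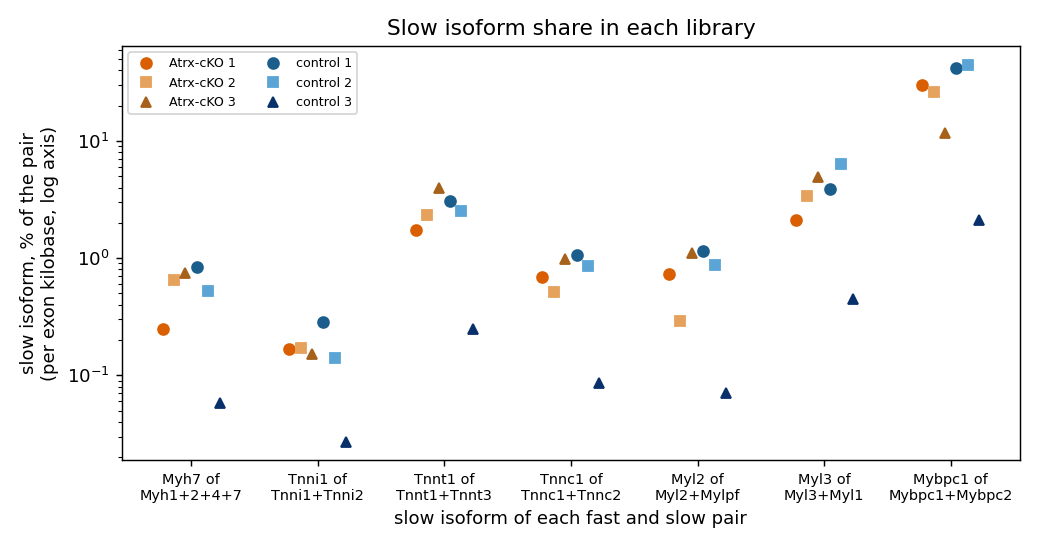
The slow isoform as a percent of its pair (per exon kilobase, log axis) for 7 pairs of slow and fast isoforms; each point is 1 library. Control 3 has the lowest slow share in every pair; among the other 5 libraries the genotypes overlap in 6 pairs, and in that of *Mybpc1* the 2 remaining controls lie above the 3 Atrx-cKO libraries.

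*Acta1*, skeletal alpha-actin, had the highest mean CPM per exon kilobase of the 39 genes (336 over the 6 libraries), ahead of *Tnnt3* (213) and *Tnnc2* (208). It was at 442, 203 and 113 CPM in Atrx-cKO and 169, 167 and 2003 CPM in control libraries. *Ttn*, the giant spring protein of the sarcomere, was at 286, 125 and 80.1 CPM in Atrx-cKO and 106, 119.5 and 1119 CPM in controls, and *Neb*, which runs along the thin filament, ranged from 34.3 to 529.6 CPM in the same order of highest and lowest library. These 3 genes varied together: relative to *Acta1*, on a log2 scale with 0.5 CPM added, *Neb* lay between -2.02 and -1.70 and *Ttn* between -0.84 and -0.48 in all 6 libraries.

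*Tpm2*, beta-tropomyosin, did not keep pace with actin. It was at 130, 96.0 and 50.5 CPM in Atrx-cKO and 87.2, 80.7 and 135 CPM in control libraries, so control replicate 3 barely exceeded Atrx-cKO replicate 1. Relative to *Acta1* it stood at -3.88 on the log2 scale in control replicate 3 and between -1.76 and -0.95 in the other libraries.

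The alpha-actinins, which cross-link actin at the Z-disc, parted by isoform. *Actn3*, the form confined to fast fibers, was at 98.4, 83.7 and 27.8 CPM in Atrx-cKO and 25.2, 32.5 and 678 CPM in controls, and its ratio of control replicate 3 to the median of the other libraries, 20.9, was the highest of the 39 genes. *Actn2*, the form of all fibers, was at 21.8, 4.82 and 3.36 CPM in Atrx-cKO and 12.9, 11.2 and 18.0 CPM in controls, with Atrx-cKO replicate 1 highest. Other Z-disc genes followed the fast pattern with a smaller excess in some: in control replicate 3 *Myoz1*, a calcineurin-binding protein of fast fibers, was 10.6 times the median of the other 5 libraries, *Ldb3* 7.77 times, *Myot* 5.30 times, *Tcap*, the titin cap, 4.83 times and *Des*, the intermediate filament desmin, 5.26 times.

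Genes of calcium release and uptake followed *Acta1* from library to library. *Atp2a1*, the calcium pump of fast sarcoplasmic reticulum, was at 409, 239 and 99.0 CPM in Atrx-cKO and 118, 177 and 2060 CPM in control tibias. *Ryr1*, the calcium release channel, was at 78.4, 42.5 and 24.8 CPM in Atrx-cKO and 34.0, 38.2 and 405 CPM in controls. *Pvalb*, the calcium buffer of fast fibers, ran from 46.9 to 639 CPM, and *Cacna1s*, the voltage sensor that opens the release channel, from 5.11 to 86.0 CPM. *Casq1*, which stores calcium in the reticulum, and *Trdn*, which ties it to the channel, reached 194 and 134 CPM in control replicate 3 and no more than 39.9 and 35.0 CPM in any other library.

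The energy genes divided between glycolysis and oxygen storage. *Ckm*, muscle creatine kinase, was at 288, 159 and 75.3 CPM in Atrx-cKO and 91.6, 97.2 and 1490.4 CPM in controls. *Eno3*, muscle enolase, and *Pygm*, which frees glucose from glycogen, were 7.34 and 10.1 times the median of the other libraries in control replicate 3. *Mb*, myoglobin, the oxygen store of oxidative fibers, did not share the excess, at 76.7, 15.4 and 9.76 CPM in Atrx-cKO and 58.9, 45.6 and 30.2 CPM in controls, with control replicate 3 the lowest control. *Mb* thus ranked the 6 libraries exactly as *Myh1* did, with Atrx-cKO replicate 1 highest, then the controls, then Atrx-cKO replicates 2 and 3, and *Myh2* differed from this order only in that Atrx-cKO replicate 2 exceeded control replicate 3.

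Most of the list followed *Acta1*. For the 31 genes other than *Acta1* with at least 3 CPM in every library, the spread over libraries (SD of log2 CPM, n = 6) was compared before and after *Acta1* was subtracted. The 7 genes under that level, 5 of them slow and 2 developmental, all had a larger SD after subtraction. In 24 of the 31 the SD became smaller, with the median going from 1.41 to 0.245 and the smallest at 0.123 (*Neb*). In the other 7 of the 31 (*Myh1*, *Myh2*, *Tnnt1*, *Mybpc1*, *Actn2*, *Mb* and *Tpm2*) it became larger, for example from 1.12 to 1.78 for *Myh1* and from 1.13 to 1.64 for *Mb*, and these 7 did not share a pattern of their own: *Tnnt1* was nearly level, control replicate 3 was highest for *Tpm2* and second for *Actn2*, and it was the lowest control for *Myh1*, *Myh2*, *Mybpc1* and *Mb*. *Myh4* had the largest remaining SD of the 24, at 0.764. These SDs describe 6 libraries of which 1 stands far from the rest, and no test was made of them.

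Between genotypes, 0 of the 38 tested genes passed both thresholds (adjusted p under 0.05 and a change of 1 or more on the log2 scale, quasi-likelihood F-test of edgeR), where 0.0145% of the 20636 tested genes did. At an unadjusted p under 0.05 the count was also 0 of 38 in either direction, against 3.64% of all genes (1.59% higher and 2.05% lower in Atrx-cKO), and the DESeq2 Wald test called 0 of the 32 genes it gave an adjusted p, with 1 gene, *Tnnt1*, at an unadjusted p under 0.05 (in that fit 0.0885% of all genes were called and 2.8% had an unadjusted p under 0.05). The median log2 fold change of Atrx-cKO over control was -1.38 for the 38 genes, -1.49 for the fast genes, -1.39 for those of both fiber types and 0.11 for the slow genes, against 0.005 for all tested genes, and 31 of the 38 were below 0. For *Myh4* the means were 415 ± 226 CPM in Atrx-cKO and 1637 ± 2593 CPM in control tibias (SD, n = 3 each), a log2 fold change of -1.98 with a standard error of 1.30. *Acta1* gave 253 ± 170 and 780 ± 1059 CPM (SD, n = 3 each) and a log2 fold change of -1.63 with a standard error of 1.0. Adjusted p-values of all 38 genes were between 0.992 and 0.997 (edgeR).

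These signs rested on 1 library. Without control replicate 3, 27 of the 38 genes changed sign, 32 lay above 0 and the median was 0.46, while the median of all genes was -0.0016. Again none of the 38 passed, where 5 of all genes tested passed as higher in Atrx-cKO and 0 as lower in that fit. *Myh4* then had a log2 fold change of 1.55, *Acta1* one of 0.58 and *Ckm* one of 0.87. *Myh1*, *Mb*, *Actn2*, *Tcap* and *Myl3* stayed below 0 both with and without it, and *Tnnt1* stayed above 0 whichever library was left out (0.25 to 0.51).

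**Figure D4:**
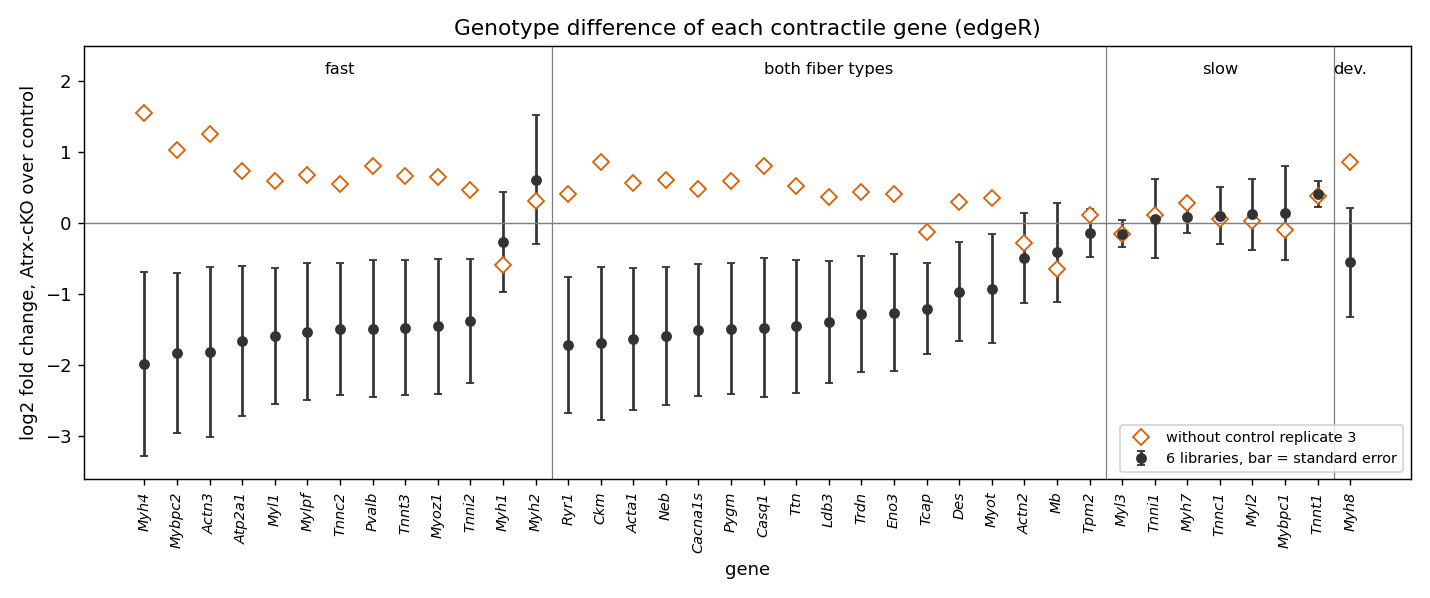
Log2 fold change of Atrx-cKO over control for the 38 tested genes by fiber type, with all 6 libraries (filled points, bars are standard errors) and without control replicate 3 (open diamonds). Fast genes and genes of both fiber types lie mostly below 0 with all libraries and mostly above 0 without control replicate 3.

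The other genes of muscle fibers were taken from lists that are separate from the 39. Of 16 further sarcomere and turnover genes, 14 were at least 2-fold higher in control replicate 3 than the median of the other libraries. *Xirp2* stood at 87.6, 32.4 and 32.3 CPM in Atrx-cKO and 42.0, 39.8 and 321 CPM in controls. *Cmya5* reached 313 CPM in the same library against 25.9 to 64.7 CPM elsewhere. *Myom1*, which links thick filaments at the M-line, was just below 2-fold, at 158 CPM against 53.9 to 88.1 CPM. The triad and sarcoplasmic reticulum list had 10 of 11 such genes, among them *Cacna2d1* (34.9 to 91.4 CPM), *Srl* (18.0 to 121 CPM) and *Hrc* (17.5 to 68.1 CPM), and the glycolytic list had 8 of 9, among them *Aldoa* (338 to 1519 CPM) and *Pfkm* (51.8 to 308.5 CPM), with *Ldha* (259 to 495 CPM) below 2-fold. Slow companions had 0 of 6. *Tpm3*, the gene of slow tropomyosin, was at 293 CPM in control replicate 3 and 331 to 459 CPM in the others. *Atp2a2*, the gene of the slow calcium pump, was at 202 to 251 CPM and *Myl6b* at 2.54 to 3.95 CPM. Both *Tpm3* and *Atp2a2* were counted over the whole gene and lay far above the slow myosin *Myh7* (2.34 to 3.89 CPM). How much of their RNA came from slow fibers was not tested.

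Among developmental companions, *Actc1*, cardiac alpha-actin, which is also made by immature fibers, was at 1.74, 2.35 and 2.33 CPM in Atrx-cKO and 1.30, 1.5 and 25.5 CPM in controls. *Myl4* (3.74 to 9.20 CPM) and *Tnnt2* (0.105 to 0.611 CPM) did not share this. *Chrng*, the fetal acetylcholine receptor subunit, had 0 counts in all 6 libraries, which allows at most 0.0588 CPM in the shallowest without the TMM adjustment. The satellite cell list, summed over its 11 genes, was at 92.6, 96.1 and 93.3 CPM in Atrx-cKO and 90.6, 101 and 117 CPM in controls. That sum was carried by *Cdh15* (60.6 to 75.0 CPM) and *Megf10* (26.5 to 32.6 CPM), while control replicate 3 was highest for 8 of the 11 genes and at least 2-fold over the median of the other libraries for 5. These 5 were *Myf6*, the myogenic factor kept in mature fibers, with 265 counts there and 16 to 148 elsewhere, and 4 genes named after their values were seen: *Myod1* (83 counts against 11 to 45), *Chodl* (35 against 0 to 25), *Myog* (34 against 0 to 6) and *Pax7*, the satellite cell factor (15 against 0 to 6). Neuromuscular junction genes summed to 58.9 to 102 CPM, mostly *Ache* (44.4 to 90.5 CPM), which blood cells also make; 4 of the 9 genes were highest in control replicate 3 and 2, *Musk* and *Dok7*, named after their values were seen, were at least 2-fold over the median there, with *Chrna1* at 2.57 to 5.82 CPM and *Chrnb1* at 2.58 to 4.68 CPM.

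Markers of other cell types showed what else differed in control replicate 3. Bone markers summed to 63695, 64164 and 64433 CPM in Atrx-cKO and 59525, 101142 and 90557 CPM in controls, so control replicates 2 and 3 were both high; *Col1a1* (53548 to 92517 CPM) made up most of it, with *Bglap* and *Ibsp* next. Tendon markers summed to 221, 179 and 138 CPM in Atrx-cKO and 168, 199 and 324 CPM in controls, with 5 of 6 highest in control replicate 3 and 0 at 2-fold, led by *Fmod* (115 to 271 CPM) before *Thbs4* and *Scx*. Smooth muscle markers summed to 194 to 226 CPM in 5 libraries and 356 CPM in control replicate 3, where *Synm*, an intermediate filament gene that skeletal muscle also uses, was at 165 CPM against 33.8 to 45.0 CPM elsewhere, and *Smtn* (104 to 125 CPM) and *Acta2* (17.9 to 32.2 CPM) were nearly level. Cartilage markers, mostly *Col2a1* (706 to 1504 CPM, with *Acan* and *Col9a1* next), summed to 735 to 1098 CPM in Atrx-cKO and 1037, 1549 and 1517 CPM in controls, and 3 of its 6 genes (*Acan*, *Col9a1* and, named after its values were seen, *Matn3*) were at least 2-fold over the median of the other libraries in control replicate 3, though *Col9a1* and *Matn3* were higher still in Atrx-cKO replicate 3 and *Acan* was also high in control replicate 2 (43.9 against 56.1 CPM).

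Neutrophil markers, led by *Ngp*, *S100a9* and *S100a8*, were lowest in control replicate 3, at 7267 CPM against 8688 to 12510 CPM in the others. Erythroid markers (*Hba-a1*, *Hbb-bt* and *Alas2*) summed to 1344 CPM there and 1077 to 2824 CPM elsewhere. Endothelial markers (*Cdh5*, *Kdr* and *Pecam1*) summed to 424 to 480 CPM, Schwann cell markers (*Pmp22*, *Mbp* and *Prx*) to 102 to 125 CPM and adipocyte markers (*Fabp4*, *Adipoq* and *Plin1*) to 155 to 250 CPM over all 6 libraries. *Plin1* and *Pck1*, the latter named after its values were seen, were at least 2-fold over the median in control replicate 3 (8.47 and 2.23 CPM) and nearly as high in Atrx-cKO replicate 3 (7.84 and 1.99 CPM). Cardiac markers (*Tnni3*, *Myh6* and *Ryr2*) summed to 2.58 to 3.45 CPM and keratinocyte markers (*Krt10*, *Krt1* and *Krt14*) to 2.51 to 3.86 CPM, with *Krt5* at 0 counts in all 6. The part of these cells in the muscle gene values was not tested. Of the 133 genes of these further lists 117 were tested and 0 were called between genotypes (edgeR), and 5 had an unadjusted p under 0.05, all lower in Atrx-cKO (4.27% of those tested, against 2.05% of all genes lower and 3.64% in either direction), which are named here after their values were seen: *Xirp1*, *Myod1*, *Tnmd*, *Ibsp* and *Col2a1*, each with an adjusted p of 0.992. *Xirp1*, an actin-binding protein of muscle attachment sites, was at 2.58, 1.37 and 0.560 CPM in Atrx-cKO and 2.05, 4.71 and 36.3 CPM in control libraries, and the groups overlapped. Groups also overlapped for *Tnmd* and *Col2a1*. They did not for *Myod1* (0.193 to 0.274 CPM in Atrx-cKO, 0.316 to 1.74 CPM in controls) and *Ibsp* (1238 to 1293 CPM and 1307 to 2114 CPM). Of all tested genes, 4.01% had groups apart in that direction and 8.31% in either.

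**Figure D5:**
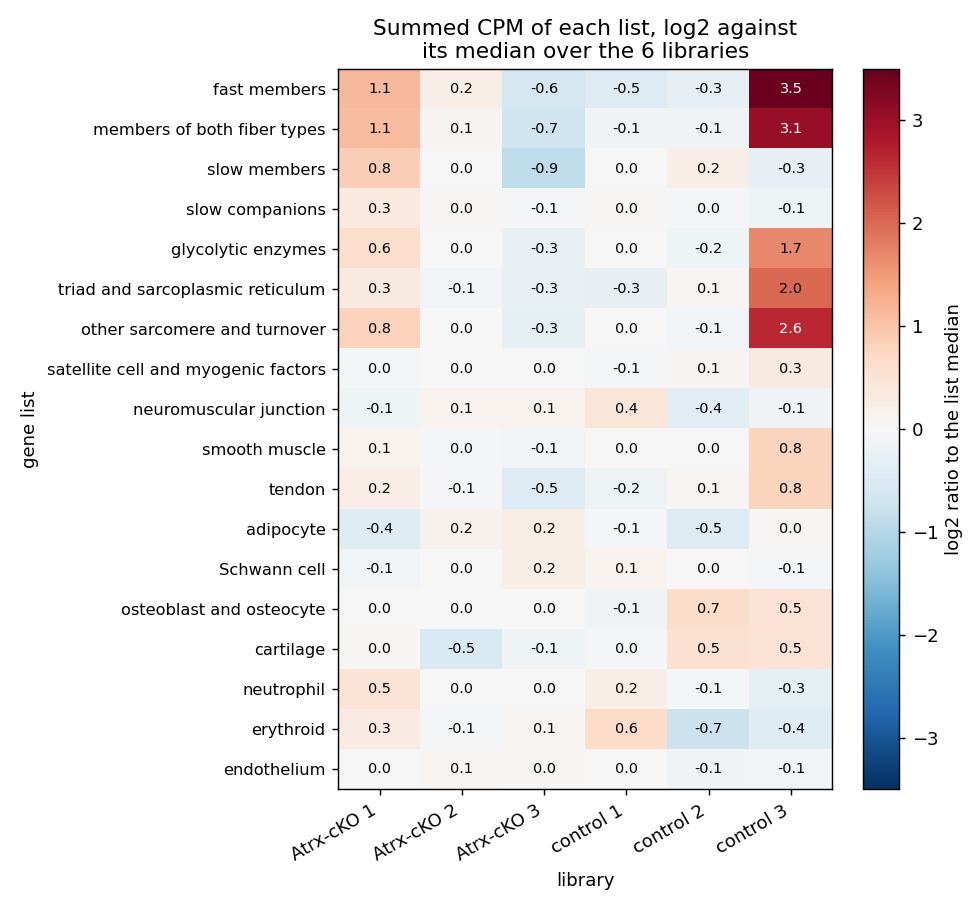
Summed CPM of each gene list in each library as the log2 ratio to the median of the 6 libraries (color and printed value). Fast genes, genes of both fiber types and the triad, sarcomere and glycolytic lists are highest in control 3, while slow genes and the Schwann cell and endothelial lists stay near 0 there; the satellite cell list also does, its sum being mostly *Cdh15* and *Megf10*.

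Some of the 39 genes share exons with a gene on the opposite strand (17 of 39, and none on the same strand). The overlap covered 74% of the exons of *Tnnc2* (with *Ube2c*), 27.6% of *Mb* (with *Gm49540*), 21.9% of *Atp2a1* (with *Rabep2*) and 20% of *Cacna1s* (with *Gm37759*). The partners followed their muscle neighbors: *Ube2c* was at 207, 130 and 97.4 CPM in Atrx-cKO and 123, 102 and 641 CPM in controls, and *Gm49540* at 34.6, 7.30 and 5.14 CPM in Atrx-cKO and 32.1, 21.5 and 12.3 CPM in controls. The libraries are labelled as strand specific, but how strand was used in counting is not given in the sources used here, so reads of these pairs cannot be told apart and the values of these 4 genes are uncertain by that amount. *Myl3* shares 4.65% of its exons with *Pth1r*, a parathyroid hormone receptor gene of bone at 214 to 341 CPM, which is far above the 2.26 to 2.90 CPM of *Myl3* itself.

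Outside all the lists, the 10 genes whose log2 CPM lay nearest to the summed level of the 39 over the 6 libraries had root mean square deviations of 0.123 to 0.190, against a median of 1.32 for the 12582 genes compared. They were *Mypn*, *A930016O22Rik*, *Klhl31*, *Eef1a2*, *Gm17224*, *Smyd1*, *Trim54*, *Pdlim3*, *A630019I02Rik* and *Sh3bgr*. *Mypn* was at 5.56, 2.89 and 1.65 CPM in Atrx-cKO and 1.79, 2.60 and 29.0 CPM in control libraries. *A930016O22Rik* shares exons with *Ckm* and *Gm17224* with *Casq1*, each on the opposite strand.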

How the data were processed

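Tibias of 3 Atrx-cKO and 3 control mice gave 1 library each. The authors deposited raw counts per gene, without normalization, and the counts were used as deposited. The labels name GRCm38 and DESeq2 in the submitters' processing notes, and the aligner and counting program are not given in the sources used here. Summary entries entered neither library sizes nor tests: 51.6% to 52.4% of each file was on no feature, 3.69% to 4.56% aligned to more than 1 place and 0.644% to 0.701% was ambiguous, which left 42.8% to 43.8% on genes. GENCODE M21 named 55141 of 55401 identifiers and left 260 unnamed.

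Counts were fitted with edgeR 4.0.16 in R 4.3.3 (TMM, filterByExpr, glmQLFit and glmQLFTest, genotype alone, all 6 libraries). A gene was called where its p, adjusted by Benjamini-Hochberg over all tested genes, was under 0.05 and its log2 change was 1 or more in size. DESeq2 1.42.0 was the alternative test, and it gave no p for 7 of the 39 genes, which it treats as holding an extreme count. CPM were computed on TMM-scaled library sizes, and CPM per kilobase on merged exons. Isoform ratios were compared by two-sided exact permutation tests (scipy 1.17.1) and adjusted over the 11 ratios. Levels relative to *Acta1* had 0.5 CPM added. The fits were tested on simulated data. Replicates of a group differed by more than sampling noise (chi-square per degree of freedom 17.1 to 152). The sources used here do not give litters or days, so p-values measure only the spread between these samples.

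The genes named were all 39, the 3 of highest mean CPM in each other list, genes of those lists with 0 counts throughout, opposite-strand neighbors, and the 10 genes of at least 5 CPM most like the summed level, and a few more are marked where they were named after their values were seen. The members and lists were chosen with earlier results of these data known.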

Additional observations from a re-analysis of the deposited data

How the results depend on the processing

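Of 531 fold changes of contractile genes under the alternatives, 524 had an adjusted p, none passed the threshold and the lowest was 0.495. The other 7 (*Myh4*, *Myl1*, *Actn3*, *Pvalb*, *Mybpc2*, *Ttn* and *Pygm* under DESeq2) had none, so DESeq2 did not test them. These alternatives were RLE, upper quartile or no TMM scaling, no filter on low counts, at least 10 counts in every sample (which removed *Tnni1*), the DESeq2 Wald test, TREAT at a log2 threshold of 1, a replicate block and each library left out in turn. Over all genes, calls higher in Atrx-cKO numbered 3, and 4 with no filter (1 lower), 1 at 10 counts in every sample, 10 with DESeq2 (13 lower), 1 with TREAT and 0 with the replicate block, and 0 to 5 (0 to 1 lower) without 1 library. The cause was not tested.

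Signs of single genes depended on the libraries used, and chiefly on control replicate 3, as given above. Without 1 library the log2 fold changes that turned sign ran from -1.58 to 0.17 for *Myh1*, -1.14 to 1.14 for *Myh2*, -2.53 to 1.55 for *Myh4*, -2.01 to 0.67 for *Tnnt3*, -1.87 to 0.48 for *Tnni2*, -2.01 to 0.55 for *Tnnc2*, -2.01 to 0.68 for *Mylpf*, -2.07 to 0.60 for *Myl1*, -2.33 to 1.27 for *Actn3*, -1.96 to 0.81 for *Pvalb*, -2.22 to 0.74 for *Atp2a1*, -2.34 to 1.03 for *Mybpc2*, -1.92 to 0.66 for *Myoz1*, -0.066 to 0.29 for *Myh7*, -0.43 to 0.39 for *Tnni1*, -0.42 to 0.32 for *Tnnc1*, -0.48 to 0.48 for *Myl2*, -0.74 to 0.63 for *Mybpc1*, -0.98 to 0.86 for *Myh8*, -2.30 to 0.58 for *Acta1*, -2.26 to 0.87 for *Ckm*, -2.24 to 0.41 for *Ryr1*, -2.0 to 0.49 for *Cacna1s*, -2.13 to 0.53 for *Ttn*, -2.15 to 0.61 for *Neb*, -1.77 to 0.42 for *Eno3*, -1.97 to 0.60 for *Pygm*, -1.95 to 0.81 for *Casq1*, -1.84 to 0.026 for *Mb*, -0.46 to 0.16 for *Tpm2*, -1.48 to 0.30 for *Des*, -1.67 to 0.35 for *Myot*, -1.95 to 0.38 for *Ldb3*, -1.71 to 0.44 for *Trdn*. The difference in log2 odds ran from -0.42 to 1.51 for *Myh7* against the fast myosins, -0.29 to 1.41 for *Tnni1* and *Tnni2*, -0.14 to 1.70 for *Tnnt1* and *Tnnt3*, -0.44 to 1.38 for *Tnnc1* and *Tnnc2*, -0.71 to 1.31 for *Myl2* and *Mylpf*, -0.63 to 1.33 for *Myl3* and *Myl1*, -1.49 to 1.12 for *Mybpc1* and *Mybpc2*, -2.48 to 0.89 for *Myh1* among fast myosins, -1.45 to 1.35 for *Myh2* among fast myosins, -0.97 to 2.53 for *Myh4* among fast myosins and 0.026 to 1.34 for *Myh3*+*Myh8* among 6 myosins, and the log2 difference in the summed share of the 39 genes from -1.22 to 0.50.

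No pairing by replicate number is given in the sources used here, and same-numbered samples' deviations from their group means correlated at -0.00315, 0.108 and -0.0996. With 3 libraries per group these correlations cannot decide whether same-numbered libraries shared a litter or day. With the replicate number as a block, *Myh2* had a log2 fold change of -0.28, *Myh4* of 0.25, *Actn3* of 0.18, *Myl2* of -0.026 and *Mybpc1* of -0.30, the opposite sign to the fit without it, and the other 33 kept their sign, though the median over the 38 genes moved from -1.38 to -0.37. The block cannot change the differences in the ratios, which are differences of group means. Depth limits *Tnni1*, *Tnnc1*, *Myl2*, *Myh3* and *Myh8*, which had at most 106 counts in any library.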
